A study of Homo sapiens with 4 samples.

Results

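MUC13, MUC1, DCC and NEO1 are 4 genes for cell-surface proteins: a pair of transmembrane mucins and the pair of netrin receptors of the DCC family. They were picked out of 18377 genes by name, 1 probe set each, and MUC13 and DCC were selected on their own difference between VS-5584 and control arrays. MUC1 and NEO1 were taken as the relatives to set beside them. For all 4, the differences between the groups are therefore a description of these arrays and carry no test. All 4 passed the filter on dim genes on every array, so that the filter did not choose among them.

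The cells were OPM2, a human line derived from multiple myeloma, a tumour of plasma cells, and were grown in serum-containing medium; their total RNA was read on 4 one-colour arrays. The 2 VS-5584 cultures received 123 nM of the compound, which blocks both PI3 kinase and mTOR, and the 2 control cultures its solvent DMSO; all were harvested at 24 h. The dose is that of the sample labels, and the series' design text gives 125 nM instead. Both groups are the same line, with no genetic change, and sample titles speak of biological replicates but not of how cultures were kept apart, so that limma's p-values measure the spread between these samples, which may be technical.

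As background, transmembrane mucins are long proteins whose extracellular part is densely covered with O-linked sugars, anchored by 1 membrane span and a short signalling tail. MUC13 is best known from the apical surface of the gut epithelium, and MUC1 from many epithelia and from plasma cells and myeloma cells. DCC, whose name stands for deleted in colorectal carcinoma, guides axons towards netrin-1 and is called a dependence receptor because, without its ligand, it can promote cell death. NEO1 (neogenin) is its widely expressed relative, which binds both netrins and the repulsive guidance molecules (RGMs).

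The 250 bases before the annotated start of each gene are shown because MUC13 and DCC were higher together while MUC1 and NEO1 differed little, and a reader may want to compare what lies in front of them. The sequences are from RefSeq, build GRCh38.p14, and run 5′ to 3′ on the gene's own strand. They cover chr3:124934752-124935001 (minus strand) for MUC13, chr1:155192916-155193165 (minus) for MUC1, chr18:52339947-52340196 (plus) for DCC and chr15:73051652-73051901 (plus) for NEO1. Capitals mark matches to the motifs named after them.
MUC13: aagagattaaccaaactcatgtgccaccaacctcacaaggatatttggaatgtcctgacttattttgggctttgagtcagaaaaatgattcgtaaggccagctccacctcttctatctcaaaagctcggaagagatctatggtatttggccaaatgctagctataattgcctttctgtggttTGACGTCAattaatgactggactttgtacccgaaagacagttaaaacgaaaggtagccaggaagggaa
DCC: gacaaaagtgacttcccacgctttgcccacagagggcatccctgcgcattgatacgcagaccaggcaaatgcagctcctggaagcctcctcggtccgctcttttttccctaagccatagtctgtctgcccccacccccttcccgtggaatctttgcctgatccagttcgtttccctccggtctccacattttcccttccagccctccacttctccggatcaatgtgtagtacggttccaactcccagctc
MUC1: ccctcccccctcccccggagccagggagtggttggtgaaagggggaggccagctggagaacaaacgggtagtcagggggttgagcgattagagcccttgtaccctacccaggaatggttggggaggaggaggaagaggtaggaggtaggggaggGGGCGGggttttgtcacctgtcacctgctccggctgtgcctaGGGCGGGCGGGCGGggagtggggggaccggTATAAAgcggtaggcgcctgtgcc
NEO1: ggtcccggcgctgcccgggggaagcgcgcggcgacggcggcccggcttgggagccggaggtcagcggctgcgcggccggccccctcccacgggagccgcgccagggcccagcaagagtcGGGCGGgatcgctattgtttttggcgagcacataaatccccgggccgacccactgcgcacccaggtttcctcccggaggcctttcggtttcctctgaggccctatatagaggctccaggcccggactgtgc

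The MUC13 window had 41.6% G and C, with 5 CpG pairs, and the DCC window 56.0%, with 10. The MUC1 and NEO1 windows held more, 66.0% with 11 CpG pairs and 71.6% with 28, against a median of 58.0% over 27305 RefSeq promoters. In the windows of 300 bases (250 before and 50 after the start), 6 motifs were searched on both strands. The FOXO core TGTTTAC (in 3.41% of promoters), the E-box CACGTG (7.43%), the STAT site TTCNNNGAA (7.88%) and the CCAAT box CCAAT (35.7%) were in none of the 4. The TATA box TATAAA (12% of promoters) was in MUC1 alone, at -24 to -19 from the start. The GC box GGGCGG (44.6%) was in MUC1 at 4 places, 3 of them overlapping, and in NEO1 at 1. MUC13 and DCC held none of these 6 motifs. The cyclic AMP response element TGACGTCA, added after the letters had been read, was in MUC13 at -68 to -61 from the start, and in none of the other 3, and 1.98% of all promoters held it. These matches describe letters only, and say nothing of which factors bind.

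The arrays set the frame for every value below. Across 28869 probe sets the median intensity lay between 49.3 and 52.5 on the 4 arrays. VS-5584 replicate 2 stood apart: the interquartile range of log2 intensity was 1.74 there and 1.93 to 1.95 elsewhere. Its Pearson correlations with the remaining 3 were 0.980 to 0.985, whereas those gave 0.993 to 0.996 with one another. Its shift relative to the control mean depended on brightness. The median was -0.262 among the brightest 4594 genes, which include MUC13, DCC and NEO1, and -0.106 among the 4594 next in brightness, which include MUC1. On VS-5584 replicate 1 these medians were -0.030 and 0.011. What this shift adds to or takes from the values of replicate 2 was not tested, and each difference below is given for both VS-5584 arrays. Intensities of different probe sets depend on their probes as well as on RNA, so an order of genes by brightness is one of signal and not of RNA.

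MUC13 was higher on both VS-5584 arrays than on both controls, by 1.89-fold on average. Its log2 intensity was 9.47 and 9.74 in VS-5584 cells (intensities of 711 and 854), against 8.76 and 8.61 in control cells (434 and 390). There was no overlap: the lower VS-5584 value stood 0.71 log2 units above the higher control, while the controls differed from each other by 0.15. The means were 9.61 ± 0.19 in VS-5584 cells and 8.69 ± 0.11 in control cells (log2, SD, n = 2 each), a difference of 0.92 ± 0.15 (limma's SE). Against the control mean MUC13 was 1.73-fold higher on replicate 1 and 2.07-fold higher on replicate 2, where the brightest 4594 genes had a median below 0. Among the 11026 genes tested, its average difference was the sixth from the top (rank 6), and its ranks on the VS-5584 arrays taken singly were 7 and 9. The probe set lay at percentile 88.5 to 96.5 of all genes in brightness, so that the signal was bright in control cells too. In RNA from whole cultures, more MUC13-expressing cells and more RNA per cell cannot be told apart, and this holds for every gene below.

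DCC showed a difference of similar size with an even spread over the VS-5584 arrays. Log2 intensity was 8.79 and 8.72 in VS-5584 cells (444 and 422), against 7.87 and 8.04 in control cells (234 and 262). Here too the groups stood apart, with a gap of 0.69 between the lower VS-5584 and the higher control value and 0.17 between the controls. The means were 8.76 ± 0.05 and 7.95 ± 0.12 (VS-5584 and control, SD, n = 2 each), a difference of 0.80 ± 0.14 (SE) or 1.75-fold. On replicates 1 and 2 taken singly the fold was 1.79 and 1.71, with ranks of 4 and 39 among the genes tested, and rank 10 on average. In brightness DCC lay at percentile 81.9 to 91.3 over the 4 arrays.

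NEO1, the close relative of DCC, differed by far less. Its log2 intensity was 10.07 and 10.21 in VS-5584 cells (1078 and 1187), against 10.01 and 10.05 in control cells (1031 and 1061). NEO1 did not overlap between the groups, but the gap was 0.02 and the VS-5584 replicates differed from each other by more than that. Means were 10.14 ± 0.10 and 10.03 ± 0.03 (VS-5584 and control, SD, n = 2 each), and the difference was 0.11 ± 0.13 (SE), or 1.08-fold. Without VS-5584 replicate 2 it was 0.044, and without VS-5584 replicate 1 it was 0.183. The probe set was bright on all arrays, at percentile 96.8 to 98.0.

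MUC1 was the dimmest of the 4, at percentile 51.8 to 63.4 of all genes in brightness, and its groups overlapped. It stood at log2 6.16 and 6.37 in VS-5584 cells (71.4 and 82.6), against 5.98 and 6.16 in control cells (63.0 and 71.6). VS-5584 replicate 1 and control replicate 2 were thus within 0.01 log2 units of each other, and the higher VS-5584 value was the one on the array that stood apart. The means were 6.26 ± 0.15 and 6.07 ± 0.13 (VS-5584 and control, SD, n = 2 each), with a difference of 0.19 ± 0.14 (SE), or 1.14-fold. Without VS-5584 replicate 1 the difference was 0.298, without VS-5584 replicate 2 it was 0.088, without control replicate 1 it was 0.101, and without control replicate 2 it was 0.286.

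**Figure D1:**
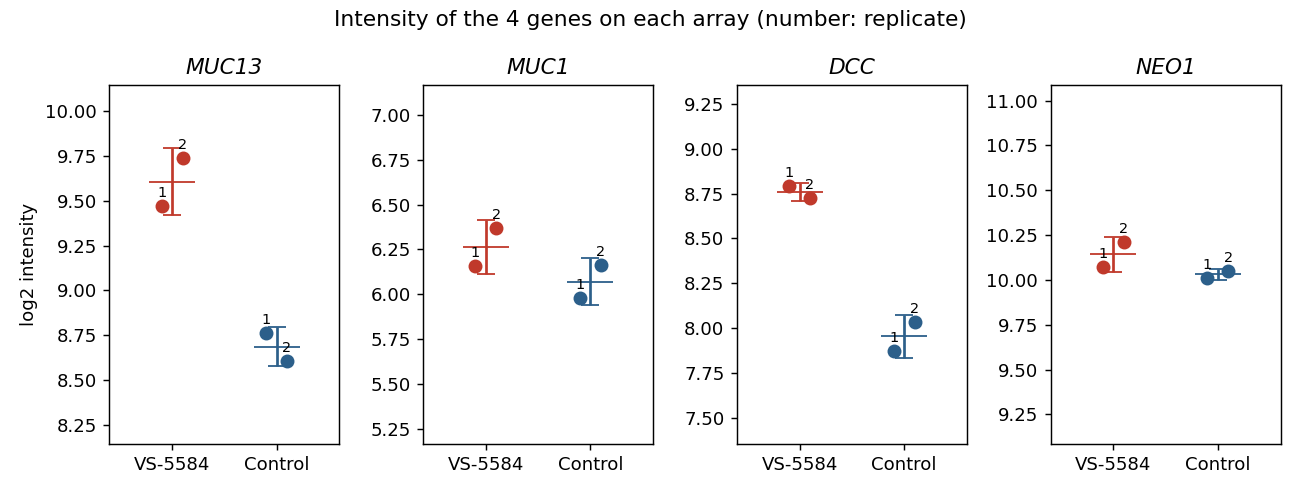
Log2 intensity (vertical axis, each panel spanning an equal range) of MUC13, MUC1, DCC and NEO1 on the VS-5584 (red) and control (blue) arrays; points are single arrays with their replicate number, bars the mean and SD of n = 2. MUC13 and DCC stand apart between the groups by 0.71 and 0.69, NEO1 by 0.02, and MUC1 overlaps.

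Against the background of all genes, limma called 0 of 11026 at an adjusted p under 0.05 (0%), and 1149 (10.4%) had an unadjusted p under 0.05. Groups without overlap were found with VS-5584 higher for 1619 genes (14.7%), and with VS-5584 lower for 3223 (29.2%). MUC13, DCC and NEO1 are 3 genes of the first kind. Since the contrast itself chose MUC13 and DCC, nothing is read from that count. The plot of difference against level shows that MUC13 and DCC lay at the upper edge of the genes of their brightness on each VS-5584 array, while MUC1 and NEO1 lay inside the bulk.

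**Figure D2:**
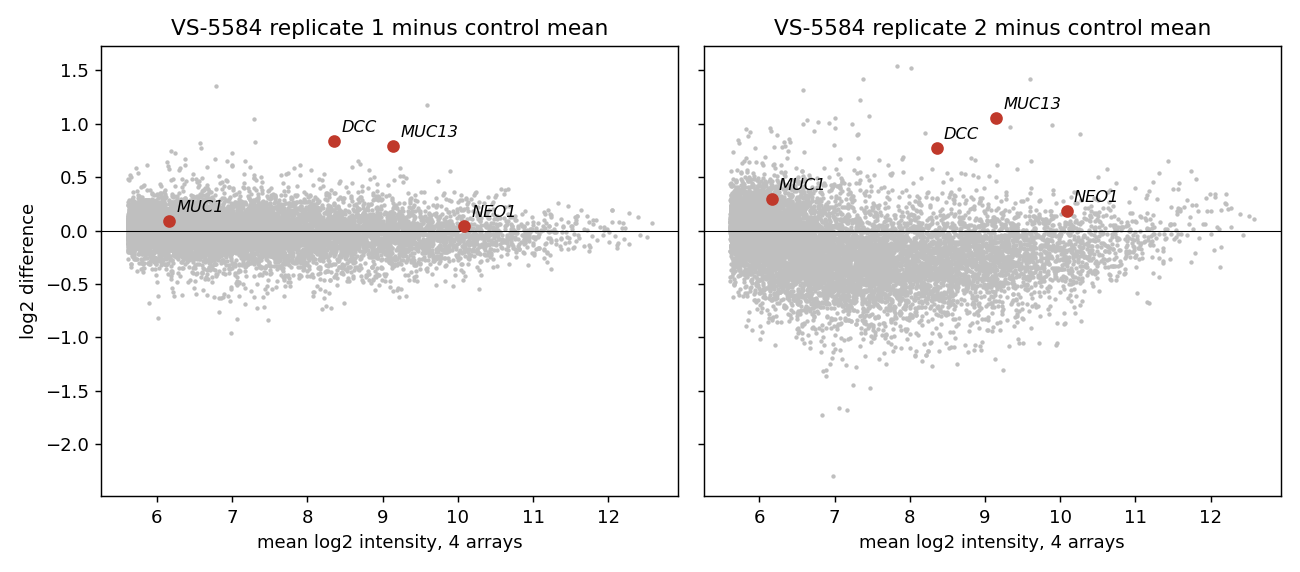
Log2 difference from the control mean (vertical) against mean log2 intensity over 4 arrays (horizontal) for the 11026 genes tested (grey), with VS-5584 replicate 1 on the left and replicate 2 on the right; the 4 genes are in red. MUC13 stands at 0.79 and 1.05 and DCC at 0.84 and 0.77, while bright genes on replicate 2 are centred below 0.

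The other mucins gave low signals on all arrays. Besides MUC13, 14 genes with a MUC symbol were measured, MUC1 among them, and their log2 intensities ran from 4.62 to 6.63 over the 4 arrays. Only 6 of these 14 had a mean above the filter at log2 5.61 (an intensity of 48.9), and 12 of 14 were higher on average in VS-5584 cells, with differences of -0.17 to 0.27. That count has to be read beside genes in general. Of the 7351 genes below the filter, 4625 were also higher on average, and their median was 0.048 on VS-5584 replicate 2 and -0.006 on replicate 1. Above the filter, where 6 of the 14 lay, 4108 of all 11026 genes tested were higher.

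Among the transmembrane mucins, MUC21, a mucin of stratified epithelia, was at 6.24 and 6.63 in VS-5584 cells, against 6.10 and 6.23 in control cells. Its groups were barely apart, and the difference was 0.27 ± 0.16 (SE; limma adjusted p = 0.565). The other 2 probe sets of MUC21 gave 0.24 and 0.22. MUC12, a mucin of the colon, stood at 5.77 and 6.33 in VS-5584 cells and 5.63 and 5.95 in control cells, with overlapping groups and a difference of 0.26 ± 0.20 (adjusted p = 0.650). Another MUC12 probe set gave 0.27 and the dimmest -0.04. MUC20, a mucin reported to bind the MET receptor, differed by 0.09 (adjusted p = 0.812). MUC4, MUC16, MUC3A, MUC15 and MUC17 were below the filter, at log2 4.62 to 5.49 on all arrays, and were not tested. The gel-forming mucins MUC2 and MUC5B were below it too, at 5.43 to 5.74, as were MUC19 and OVGP1 (oviductin). MUC6, the gel-forming mucin of the stomach, and MUC7, a small salivary mucin, were tested, and differed by 0.19 and -0.17 (adjusted p = 0.664 and 0.693).

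In the whole list of transmembrane mucins and mucin-like sialoglycoproteins, apart from MUC13 and MUC1, 8 of 15 measured genes were tested. Of these, 5 were higher and 3 lower, 0 passed the adjusted threshold, and the median log2 difference was 0.11, against -0.06 over all genes tested. Leaving out VS-5584 replicate 1 turned that median to -0.059. The brightest of these 8 was CD164, followed by PARM1. CD164, an adhesion molecule of blood progenitors, was at 9.72 and 9.48 in VS-5584 cells and 9.76 and 9.54 in control cells, a difference of -0.05. SELPLG, the ligand for P-selectin, was at 7.50 and 7.01, against 6.99 and 7.14 in control cells, with 0.19 on average but 0.44 and -0.06 on the VS-5584 arrays taken singly. PODXL (podocalyxin) was lower on both VS-5584 arrays, at 7.20 and 6.79 against 7.27 and 7.42 in control cells, a difference of -0.35 ± 0.16 (adjusted p = 0.495). SPN (CD43, leukosialin) differed by 0.13 and PARM1 by -0.01, and EMCN (endomucin) and MCAM were below the filter.

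Enzymes that build mucin-type O-glycans showed small differences in both directions. Of 21 measured, 14 were tested, with 5 higher, 9 lower and 0 past the adjusted threshold, and a median of -0.05. GALNT1 and GALNT2, which attach the first sugar, gave bright signals. GALNT2 was at 8.21 and 7.99 in VS-5584 cells and 7.85 and 7.88 in control cells. Its difference was 0.23 ± 0.14 (limma adjusted p = 0.568), and GALNT1 differed by 0.05. GALNT3, GALNT10 and GALNT11, of the same family, differed by -0.02, -0.12 and -0.08. GALNT7, which extends a first sugar, was at 8.70 and 8.30 in VS-5584 cells and 8.68 and 8.33 in control cells, with overlapping groups.

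Proteins reported to bind MUC1, MUC13 or their sugars were also mixed, with 3 of 7 tested genes higher and 0 past the adjusted threshold (median -0.008). LGALS1, galectin-1, a lectin that binds cell-surface glycans, was at 9.14 and 8.60 in VS-5584 cells, against 8.62 and 8.43 in control cells; the groups overlapped and the difference was 0.35 ± 0.18 (adjusted p = 0.543). CTNNB1 (beta-catenin) differed by -0.26, the adaptor gene GRB2 by -0.31 and SOS1, the Ras exchange factor that GRB2 carries, by 0.18. GSK3B, the kinase that marks beta-catenin for destruction, and JUP (plakoglobin) differed by -0.06 and 0.01. EGFR, ERBB2, ERBB3 and ERBB4, the growth-factor receptors with which mucins associate in epithelial cells, were all below the filter, and are named after their values were seen.

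**Figure D3:**
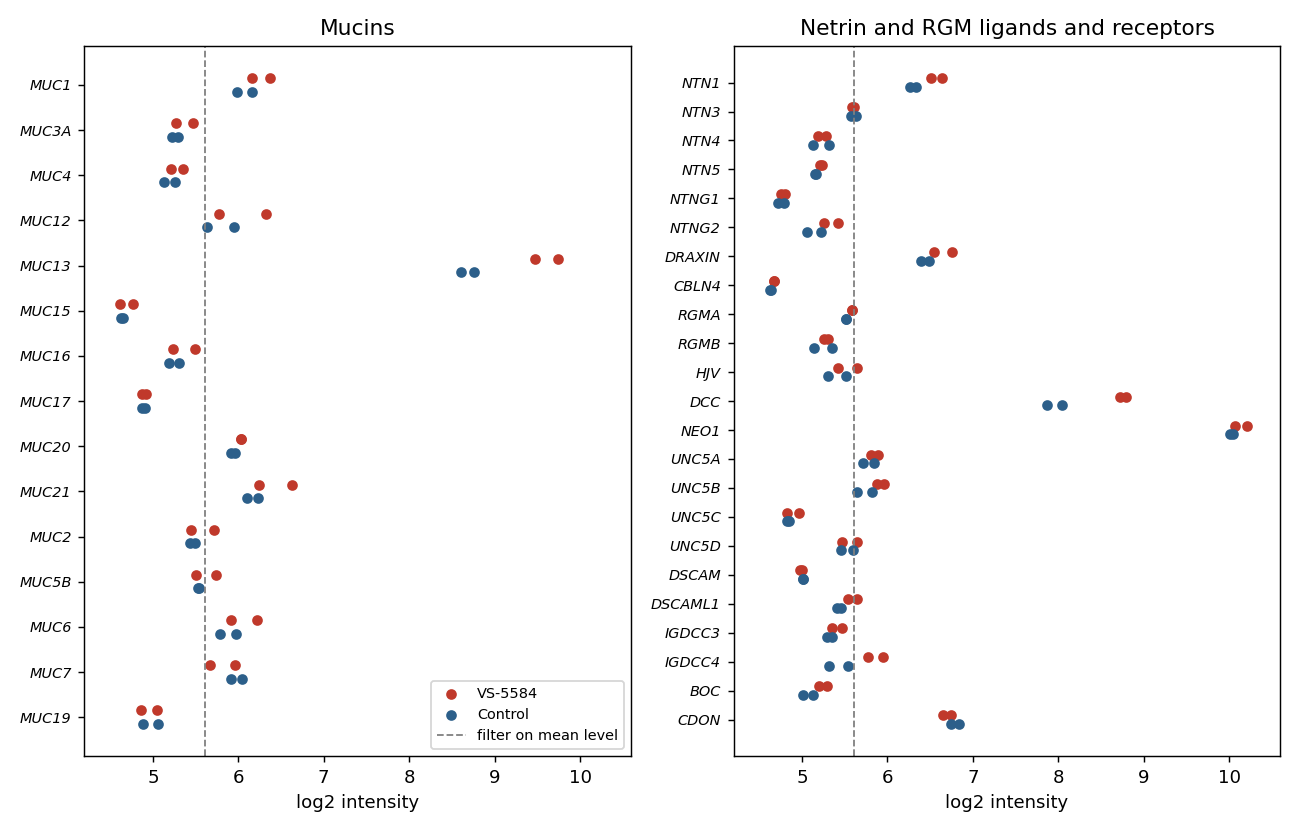
Log2 intensity (horizontal) of each measured mucin (left) and of the netrin and RGM ligands and DCC, UNC5 and related receptors (right); each point is 1 array, VS-5584 in red above control in blue, and the dashed line is the filter on mean level at 5.61. MUC13, DCC and NEO1 stand well to the right of the line, and most other genes lie at or below it.

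Genes of the netrins, the RGMs and related ligands gave low signals. Of 11 such genes measured, 9 were below the filter on dim genes. Including the 4 UNC5 receptors, the 15 genes ran from log2 4.63 to 6.76 over all arrays. NTN1, encoding netrin-1, the main ligand of DCC, was above the filter, at 6.51 and 6.64 in VS-5584 cells, against 6.34 and 6.26 in control cells. Its groups stood apart, and the difference was 0.27 ± 0.13 (SE; adjusted p = 0.514). DRAXIN, a secreted antagonist that binds both DCC and netrin-1, stood at 6.54 and 6.76 in VS-5584 cells, against 6.49 and 6.39 in control cells, a difference of 0.21 ± 0.14 (adjusted p = 0.607). RGMA and RGMB, ligands of neogenin, and its iron-regulating ligand HJV (hemojuvelin) were below the filter, with differences of 0.07, 0.04 and 0.13. So were NTN4, NTN5, the membrane-anchored netrins NTNG1 and NTNG2, and CBLN4, with differences of 0.01 to 0.20. NTN3 was at 5.58 and 5.61 in VS-5584 cells and 5.63 and 5.57 in control cells, also below the filter.

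Among the other receptors, IGDCC4, a member of the DCC family, was the gene that differed most. It was dim but above the filter, at 5.95 and 5.77 in VS-5584 cells, against 5.54 and 5.32 in control cells. Both VS-5584 values lay above both controls, and the difference was 0.43 ± 0.14 (SE; adjusted p = 0.393, unadjusted p = 0.0150). It passed under 1 alternative, an intensity trend in the prior variance (limma adjusted p = 0.0414). Under the other alternatives with all 4 arrays in which it was tested, the adjusted p was 0.0934 (replicate block) to 0.7662 (ordinary test). Its relative IGDCC3 was below the filter and differed by 0.09.

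UNC5B, a netrin receptor that mediates repulsion, was at 5.88 and 5.96 in VS-5584 cells and 5.82 and 5.64 in control cells, a difference of 0.19 ± 0.14 (adjusted p = 0.626). UNC5A differed by 0.08, and UNC5C and UNC5D were below the filter. DSCAM, another netrin receptor, was below it at 4.98 to 5.01 on all 4 arrays, and DSCAML1 was below it too. CDON, a hedgehog co-receptor related to the DCC family, was at 6.75 and 6.65 in VS-5584 cells and 6.84 and 6.75 in control cells, a difference of -0.10, and its relative BOC was below the filter. ADORA2B, an adenosine receptor reported as a netrin receptor, differed by 0.08, while MCAM and LRIG2 were below the filter. In this list, without DCC and NEO1, 5 of 13 measured genes were tested, 4 were higher and 1 lower, 0 passed the adjusted threshold, and the median was 0.08.

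Proteins that act below DCC and neogenin were mostly lower, by small amounts. Of 26 measured, 23 were tested, 5 were higher and 18 lower, 9 were lower without overlap and 0 passed the adjusted threshold. The median was -0.16, with -0.03 on VS-5584 replicate 1 and -0.23 on replicate 2, and -0.058 after cyclic loess. Over all genes tested the medians on the VS-5584 arrays were -0.0022 and -0.14, 6915 of 11026 were lower, and 29.2% were lower without overlap. NCK1, the adaptor that links the DCC tail to actin, was at 7.28 and 6.99 in VS-5584 cells, against 7.43 and 7.32 in control cells, a difference of -0.24 ± 0.15 (adjusted p = 0.583). The adaptor NCK2, the kinases FYN and SRC, the exchange factor TRIO and the GTPase RAC1 differed by -0.15, -0.11, -0.01, -0.18 and -0.16. ENAH, an actin regulator, and PLCG1, a phospholipase, had an unadjusted p under 0.05, and were named for that after their values were seen. ENAH was at 7.29 and 6.98 in VS-5584 cells and 7.47 and 7.67 in control cells, and PLCG1 at 7.04 and 6.59 in VS-5584 cells and 7.25 and 7.15 in control cells. Their differences were -0.44 ± 0.15 and -0.39 ± 0.17 (adjusted p = 0.415 and 0.470).

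The list linked to death signalling by unoccupied netrin receptors had 10 tested genes, of which 9 were lower, 6 of them without overlap, and 0 passed the adjusted threshold. Over all genes tested, 6915 of 11026 were lower, and 29.2% were lower without overlap. The median was -0.13, with -0.06 and -0.23 on VS-5584 replicates 1 and 2 and -0.053 after cyclic loess. PPP2R1B, a scaffold subunit of protein phosphatase 2A, was at 9.05 and 8.77 in VS-5584 cells, against 9.35 and 9.34 in control cells. It had the smallest adjusted p among the pathway genes outside MUC13, DCC, MUC1 and NEO1, 0.375, with a difference of -0.44 ± 0.14 (SE). APPL1, an adaptor that binds the DCC tail, was at 8.20 and 7.90 in VS-5584 cells and 8.44 and 8.25 in control cells, a difference of -0.30 ± 0.15 (adjusted p = 0.526). The caspases CASP9, CASP8 and CASP10 differed by -0.16, -0.01 and -0.09. DAPK1, a death-associated kinase that acts below UNC5 receptors, was the 1 higher gene, at 0.10.

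The shedding list was mostly sheddases and gamma-secretase subunits, which release the outer part of MUC1, DCC or neogenin and cut the stub. Its tested genes also included IL6R and RHBDF1, which are neither and are named after their values were seen. The list was even in direction: 5 of 10 tested genes were higher and 5 lower, 0 passed, and the median was -0.02. ADAM10, a sheddase of many surface proteins, was bright, at 10.61 and 10.44 in VS-5584 cells and 10.41 on both controls, a difference of 0.12 ± 0.13 (adjusted p = 0.767). ADAM17, the other broad sheddase, was at 7.95 and 7.41 in VS-5584 cells and 7.97 and 8.07 in control cells, with -0.07 and -0.62 on the VS-5584 arrays taken singly (average adjusted p = 0.543). PSEN2, a catalytic subunit of gamma-secretase, differed by 0.08 and -0.81 on those arrays. NCSTN, its substrate-binding subunit, differed by 0.12 on average, ADAM9 by -0.24 and ADAM15 by 0.10.

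Over the 9 pathway lists together, without MUC13, MUC1, DCC and NEO1, 79 of 126 measured genes were tested. Overlap was absent for 11 that were higher (13.9%) and 22 that were lower (27.8%), shares near those of all genes given above. An unadjusted p under 0.05 was found for 4 of the 79 (5.06%): IGDCC4, ENAH, PLCG1 and PPP2R1B. This is below the 10.4% of all genes tested. A fit with 1 array left out keeps a single array in 1 group and cannot measure that group's spread, so no genes are counted from it. Without VS-5584 replicate 1 the median difference over all genes tested was -0.139, and without VS-5584 replicate 2 it was -0.002.

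**Figure D4:**
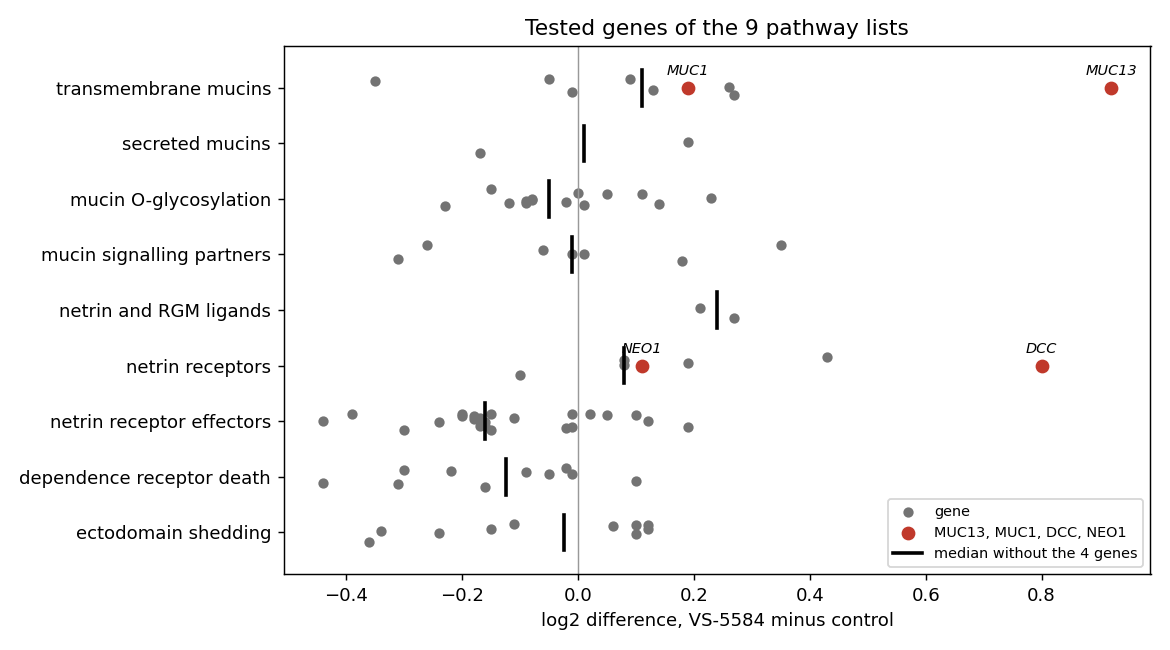
Log2 difference, VS-5584 minus control (horizontal), of each tested gene in the 9 pathway lists (rows); grey points are genes, black bars the median of each list without the 4 labelled genes in red, and vertical scatter is only for legibility. MUC13 at 0.92 and DCC at 0.80 lie to the right of every other gene of these lists. The medians lie between -0.16 and 0.24, the highest being that of the netrin and RGM ligands, from 2 tested genes.

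Because MUC13 is known from gut epithelium and DCC from neurons, markers of other cells were read on the same arrays. Of 20 epithelial markers 16 were measured and 9 of those were below the filter. Their summed intensity was 749 and 874 in VS-5584 cells, against 745 and 785 in control cells. EPCAM, the general epithelial adhesion molecule, was at 4.73 and 5.03 in VS-5584 cells and 4.66 and 5.06 in control cells, and CDH1 (E-cadherin) was at 4.88 and 5.08, against 4.96 and 4.89 in control cells. KRT8 was at 5.35 and 5.45 in VS-5584 cells and 5.35 and 5.34 in control cells, and KRT19 at 5.76 on both VS-5584 arrays and 5.85 and 5.72 on the controls. Differences of these 4 ran from -0.03 to 0.06, and the other EPCAM probe set gave 0.01. KRT18, whose many gene copies make its signal uncertain, was at 6.33 and 7.42 in VS-5584 cells, against 6.20 and 6.57 in control cells, high on the array that stood apart. On this probe set KRT18 differed by 0.49 ± 0.30 on average (SE, limma adjusted p = 0.572). The difference was -0.06 on VS-5584 replicate 1 and 1.04 on replicate 2, beside 0.79 and 1.05 for MUC13. The other KRT18 probe set was at 6.01 and 6.44 in VS-5584 cells, against 5.94 and 6.12 in control cells, a difference of 0.19. The part of KRT18-expressing cells in the MUC13 signal was not tested.

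Of 15 neural markers 14 were measured, 9 of them below the filter, and their summed intensity was 2156 and 1837 in VS-5584 cells, against 2163 and 2198 in control cells. Most of that sum came from NCAM1 (CD56), which is also an established surface antigen of myeloma cells. NCAM1 stood at 10.23 and 9.89 in VS-5584 cells, against 10.22 and 10.25 in control cells. L1CAM, MAP2 and SYP were below the filter, and SNAP25 was just above it at 5.67 and 5.73 in VS-5584 cells and 5.55 and 5.67 in control cells. ROBO1, a receptor for the axon guidance protein SLIT2, was picked out after its values were seen, at 8.76 and 8.42 in VS-5584 cells and 8.83 on both controls.

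Plasma cell markers were bright for the most part. PRDM1, the factor that drives plasma cell differentiation, was at 11.28 and 11.12 in VS-5584 cells and 11.08 and 11.13 in control cells. TNFRSF17 (BCMA) was at 10.86 and 10.69, against 10.70 and 10.27 in control cells. SLAMF7 was at 10.36 and 10.43 in VS-5584 cells and 10.24 and 10.05 in control cells. SDC1 (syndecan-1) was at 7.29 and 7.12 in VS-5584 cells and 7.29 and 7.39 in control cells, and CD38 at 6.93 and 6.52, against 6.75 and 6.72 in control cells. CD27 and CD79A, picked out after their values were seen, were below the filter. Of 15 such markers, 13 were tested, 8 were higher and 5 lower, and 0 passed the adjusted threshold. The summed intensity was 13799 and 14571 in VS-5584 cells, against 12938 and 12733 in control cells. On every array the largest part of that sum came from JCHAIN, named after its values were seen. JCHAIN was at 11.46 and 12.21 in VS-5584 cells, against 11.60 and 11.71 in control cells, highest on the array that stood apart. Of 12 measured markers of T cells, myeloid cells, red cells, platelets and B cells, 10 were below the filter, CD3E, CD3D, CD2, CD14 and LYZ among them. Of the 2 above it, named after their values were seen, HBB (beta-globin) was at 7.31 and 6.95 in VS-5584 cells and 7.28 and 7.18 in control cells, and NKG7 at 5.88 and 5.90, against 5.76 and 5.67. The summed intensity of all 12 was 560 and 550 in VS-5584 cells, against 543 and 544 in control cells.

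The genes nearest to MUC13 and DCC in pattern were found by the root mean square distance between log2 values over the 4 arrays, after each gene was centred on its own mean. The nearest to MUC13 were the zinc finger gene ZNF737 (distance 0.071), DKK1, a secreted Wnt antagonist (0.079), GPR155, a lysosomal membrane protein (0.11), KDM5B, a histone H3K4 demethylase (0.11), and BTG1, an antiproliferative gene (0.12). DKK1 was at 7.19 and 7.64 in VS-5584 cells, against 6.66 and 6.51 in control cells, and BTG1 at 10.06 and 10.49, against 9.47 and 9.54. Both share with MUC13 a higher value on VS-5584 replicate 2 than on replicate 1.

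The nearest to DCC were IGF1, a secreted growth factor (0.056), SMIM14, a small membrane protein (0.058), KDM5B (0.11), PROS1, the anticoagulant protein S (0.11), and TXNIP, an inhibitor of glucose uptake (0.11). IGF1 was at 6.55 and 6.59 in VS-5584 cells, against 5.78 and 5.84 in control cells, and SMIM14 at 7.34 and 7.41, against 6.51 and 6.72 in control cells. For TXNIP the values were 9.03 and 8.92 in VS-5584 cells and 8.36 and 8.39 in control cells, which, as for DCC, were higher on VS-5584 replicate 1. KDM5B was the 1 gene on both lists, at 6.92 and 7.14 in VS-5584 cells and 6.07 and 6.22 in control cells. DCC itself was 17th in nearness to MUC13, and MUC13 was 19th in nearness to DCC, at a distance of 0.17. Genes found in this way differ between the groups because MUC13 and DCC do, and the 4 arrays allow few distinct patterns.

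**Figure D5:**
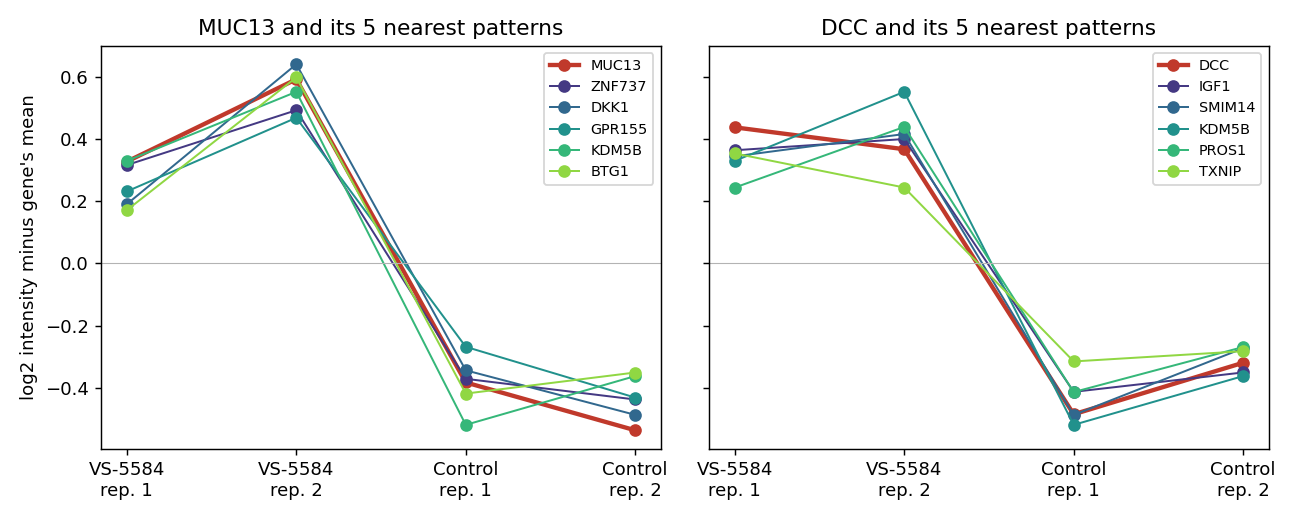
Log2 intensity minus the gene's own mean (vertical) on the 4 arrays (horizontal) for MUC13 (left) and DCC (right), each in thick red with its 5 nearest genes; lines only join the values of a gene. All are above 0 on the VS-5584 arrays and below 0 on the controls, with MUC13 highest on VS-5584 replicate 2 and DCC highest on replicate 1.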

How the data were processed

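Probe set intensities were taken as deposited: 1 value per probe set and array, for which the authors used RMA (version not given), per the submitters' processing notes. The values are linear and their distributions differ, unlike the usual RMA output. The later step, the background setting and any added constant are not given in the sources used here, and an added constant would shrink differences of dim genes. Detection above background could not be judged from these values, and precision is limited by having 2 arrays a group.

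Log2 intensities were not normalized again. Of 28869 probe sets, 19310 carried 1 gene in the platform annotation, 1752 several and 7807 none listed; 19279 of the first were matched to RefSeq (GRCh38.p14) by gene ID. Genes with several probe sets kept the brightest, the 40% dimmest of 18377 genes were left out, and 11026 were tested with limma 3.58.1 (R 4.3.3; two-sided, Benjamini-Hochberg, threshold 0.05), which was tested on simulated data. MUC13, MUC1, DCC and NEO1 get no p-value. Lists are described by counts and medians without these 4 genes. Members and lists were chosen with earlier results of these data known. Genes named are the 4, all genes of the mucin, ligand and receptor lists, the first 6 tested genes of each other pathway list, the first 5 measured of each marker list, and the 5 nearest patterns of MUC13 and DCC. Others are said to be chosen after their values were seen. Promoter sequences are from RefSeq. Alternatives were median centring, cyclic loess, quantile normalization, the replicate block, 16 subtracted, averaged probe sets, other filters, an intensity trend, an ordinary test and leaving out each array. Figures used matplotlib 3.10.9.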

Additional observations from a re-analysis of the deposited data

How the results depend on the processing

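MUC13, DCC, MUC1 and NEO1 were higher in VS-5584 cells under median centring, cyclic loess, quantile normalization, 16 subtracted and each array left out. Groups of MUC13, DCC and NEO1 did not overlap, so subtracting 16 or leaving out an array could not turn their direction. The replicate block and averaged probe sets could not change any difference, as the layout is balanced and each gene has 1 probe set. Differences of MUC13, DCC, MUC1 and NEO1 were not computed again for the filters, the intensity trend or the ordinary test. These do not enter a difference of means. MUC13 ran from 0.874 (median centring) to 1.047 (cyclic loess) with all arrays and from 0.787 to 1.052 with 1 array left out. DCC ran from 0.759 to 0.948, the highest being cyclic loess, with 0.921 after quantile normalization, and from 0.722 to 0.888 with 1 array left out. NEO1 was 0.209 and 0.188 after these 2 normalizations, 0.068 after median centring, and 0.044 to 0.183 with 1 array left out. MUC1 ran from 0.148 to 0.249 with all arrays and from 0.088 to 0.298 with 1 left out.

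The count of genes past the threshold depended on the setting: 0 as reported, 0 with median centring, averaged probe sets, no filter or the ordinary test, 2 after quantile normalization or subtracting 16, 16 after cyclic loess, 58 with the lowest 60% left out, 80 with an intensity trend, and 2 to 2636 with 1 array left out (2636 without VS-5584 replicate 1, 21 and 19 without control replicates 2 and 1, and 2 without VS-5584 replicate 2). With the replicate block it was 432. The numbers do not establish a pairing: with 2 pairs, the deviations of same-numbered arrays correlated at 0.156 over genes. Pathway genes other than the 4 passed in 0 cases as reported and with the block, and in 0 to 17 with 1 array left out (17 without VS-5584 replicate 1).

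Groups without overlap, VS-5584 higher, were found for 1008 genes after median centring, 3227 with no filter, 685 with the lowest 60% left out, and 2613 to 3676 with 1 array left out, where overlap is less likely by construction; with VS-5584 lower these were 3810 to 6623. The list median of transmembrane mucins turned to -0.011 with the lowest 60% left out. For netrin receptors that filter left only CDON, so that the value of -0.095 is that gene's own difference. The median of secreted mucins, from 2 tested genes, turned to -0.033, -0.020 and -0.014 after the 3 normalizations. Medians of O-glycosylation, mucin partners and shedding genes, all near 0, also turned sign under cyclic loess. That of the netrin and RGM ligands, from 2 tested genes, fell from 0.242 to 0.057 with no filter on dim genes. The cause of these changes was not tested, and 2 arrays a group limit all values.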
